A study of Mus musculus with 6 samples.

Results

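The genes described here are 38 genes of fatty acid metabolism, of 16244 genes in the deposited table, read in WT and RORγtN275D pathogenic Th17 cells. They were taken by gene symbol, with earlier results of these data known. There were 12 genes of synthesis, 7 of uptake and activation, and 19 of mitochondrial oxidation. All 38 were in the table, and 37 had a mean of at least 10 normalized reads and were tested. The gene left untested was Cd36, a fatty acid translocase of the cell surface.

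The cells were naive CD4+ T cells from mouse spleen, isolated by negative selection and polarized in vitro for 3 days with anti-CD3 and anti-CD28. Both genotypes were cultured in the same way. The series' design text names IL-6, IL-1β and IL-23 as the polarizing cytokines, while the methods add TGF-β and antibodies against IL-4 and IFN-γ. RNA of 3 WT libraries and 3 N275D libraries was sequenced. RORγt is the transcription factor that defines the Th17 lineage, and N275D replaces an asparagine with an aspartate in its ligand-binding domain. The knock-in mice were on a C57BL/6 background, and the methods list WT C57BL/6 mice bought from a supplier, a strain given as C57BL/6NJ. Littermate controls, when applicable, are named only for the transfer colitis. Which WT mice gave these libraries is not given, so that genotype and source of the mice cannot be told apart. The methods give a general range of ages for the mice of the study and further ranges for other experiments, but none for the donors of these libraries alone. Whether the knock-in donors of these libraries were homozygous and whether the 3 libraries of a genotype came from separate cultures or mice is not given, so the p-values measure only the spread between these libraries.

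Each library held between 17659035 and 18510878 reads on genes. Values are reads per gene that the authors divided by 1 size factor per library, and they are called normalized reads here. WT replicate 3 lay farthest from the rest of its genotype, with a root mean square difference of 0.233 on the log2 scale over the 11908 genes tested, against 0.176 to 0.217 for the other libraries. Genotypes were compared with limma on log2(normalized reads + 1), a scale that understates the change of low genes, and a gene was called at a Benjamini-Hochberg adjusted p under 0.05 over all genes tested. All adjusted p-values below come from this test. With 3 libraries against 3, an exact two-sided permutation test of a single gene cannot go below a p of 0.1. The T cell and Th17 markers Cd3e, Cd4, Il17a, Il17f and Il23r were present in all 6 libraries.

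Cells build fatty acids in the cytosol from acetyl-CoA. Acetyl-CoA carboxylase makes malonyl-CoA, fatty acid synthase assembles saturated palmitate from it, and elongases and desaturases then lengthen the chain and introduce double bonds. Fatty acids taken up or released are first joined to coenzyme A by acyl-CoA synthetases. For oxidation, carnitine palmitoyltransferases carry the acyl group into mitochondria, where dehydrogenases, hydratases and thiolases shorten it in repeated cycles. T cells use synthesis for membrane growth after activation, and in Th17 cells synthesis through acetyl-CoA carboxylase is known to favour the lineage over regulatory T cells.

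Of the 37 genes tested, 20 were called, 11 higher and 9 lower in N275D cells. Among all genes tested, 50.9% were called, 24.7% higher and 26.1% lower, so that the share of fatty acid genes called, 54.1%, lay near that of the whole transcriptome. No fatty acid gene reached a 2-fold change, against 3.59% of all genes tested. The median size of the change was 0.17 on the log2 scale for the fatty acid genes and 0.19 for all genes. Fasn, Acaca, Fads2, Fads1, Elovl1 and Elovl6 fell, and Elovl7, Scd1 and Scd2 rose. Acsl4 and Acsl1 rose while Acsl5 and Fabp5 fell. In oxidation, Acadm rose by 0.56 on the log2 scale, and the other 18 genes changed by -0.11 to 0.23.

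**Figure D1:**
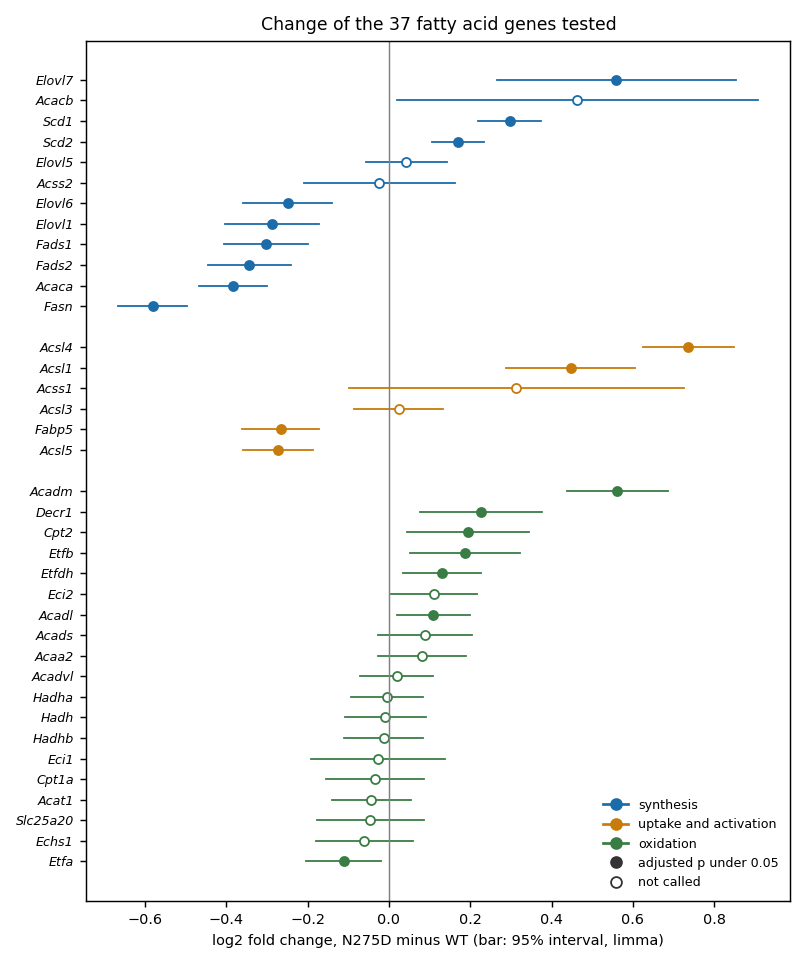
Log2 fold change, N275D minus WT, of the 37 fatty acid genes tested (x axis), with 95% intervals from limma, by group; filled circles were called at an adjusted p under 0.05 and open circles were not. Acsl4 at 0.74 is the largest increase and Fasn at -0.58 the largest decrease, and most oxidation genes lie near 0.

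The sequence just upstream of a transcript start is shown for the member with the largest called change in each group, Fasn, Acsl4 and Acadm. Each sequence is the 250 bases before the transcript start that RefSeq gives on GRCm38.p6, the build mm10, written 5′ to 3′ on the strand of the gene. All 3 genes lie on the minus strand. The Fasn window is chr11:120824548-120824797, the Acsl4 window is chrX:142390536-142390785 and the Acadm window is chr3:153944644-153944893. The windows overlap no exon of the GENCODE annotation, but those of Fasn and Acsl4 lie within the span that RefSeq gives the gene over all its transcripts. Capitals mark letter matches on either strand to 5 motifs. The sterol regulatory element was searched as TCACNCCAC. The CCAAT box was searched by the letters in its name, and the E-box as CACGTG. The core of a hypoxia response element was searched as ACGTG and, as the other allowed form, GCGTG. The nuclear receptor half-site was searched as AGGTCA. The E-box contains the hypoxia core, so that a match to the first is also a match to the second.
Fasn: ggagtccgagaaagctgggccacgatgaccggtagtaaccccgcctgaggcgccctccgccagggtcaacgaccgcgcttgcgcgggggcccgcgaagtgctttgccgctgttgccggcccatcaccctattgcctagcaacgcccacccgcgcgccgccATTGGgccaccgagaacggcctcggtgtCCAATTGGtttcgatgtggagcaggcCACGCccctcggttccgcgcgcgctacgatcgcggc
Acsl4: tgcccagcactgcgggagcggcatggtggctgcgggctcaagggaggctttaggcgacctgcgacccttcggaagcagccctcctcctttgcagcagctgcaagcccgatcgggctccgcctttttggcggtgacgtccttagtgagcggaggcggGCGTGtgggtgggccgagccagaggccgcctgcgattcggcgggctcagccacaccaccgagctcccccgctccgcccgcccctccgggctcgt
Acadm: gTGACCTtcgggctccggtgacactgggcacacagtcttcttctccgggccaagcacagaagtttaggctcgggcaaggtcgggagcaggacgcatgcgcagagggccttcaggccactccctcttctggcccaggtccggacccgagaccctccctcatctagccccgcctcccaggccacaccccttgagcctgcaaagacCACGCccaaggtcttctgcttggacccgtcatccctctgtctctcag

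In the Fasn window, CCAAT was matched as ATTGG at -90 and as the overlapping pair CCAATTGG from -62, and the hypoxia core as CACGC at -36, each position being that of the first base counted back from the start. The Acsl4 window held 1 match, GCGTG at -94. In the Acadm window the half-site was matched as TGACCT at -249 and the hypoxia core as CACGC at -47. These are letter matches and not shown to be bound sites. Promoters were found for 31 of the 38 genes, 33 in all, since Acsl1 and Elovl1 have more than 1. Among the promoters of synthesis genes, CCAAT was present in 5 of 10, the hypoxia core in 4, the half-site in 2, the E-box in 1 and the sterol regulatory element in none. Among those of oxidation genes, CCAAT was present in 6 of 16, the hypoxia core in 9 and the half-site in 4. Of 7 promoters of uptake and activation genes, CCAAT and the hypoxia core were each present in 4, the half-site in 1, and the sterol regulatory element in 1 of those of Acsl1. All 32851 promoters of the same length held these letters at shares of 33.8% for CCAAT, 38.6% for the hypoxia core, 14.0% for the half-site, 6.0% for the E-box and 1.1% for the sterol regulatory element. An absent match says only that these letters are not in this window.

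Both enzymes that commit carbon to fatty acid chains fell in N275D cells. Fasn (chr11:120805958-120825166) encodes fatty acid synthase, the multifunctional enzyme that assembles palmitate. Its normalized reads were 20105, 21256 and 22613 in WT and 14007, 14166 and 14533 in N275D, a mean of 21324 ± 1255 (SD, n = 3) against 14236 ± 270. Every N275D library lay below every WT library. The log2 fold change was -0.58 (SE 0.04, limma adjusted p = 6.9e-09), a level of 0.668 of that in WT. Without WT replicate 3, the highest of the WT libraries, the log2 fold change was -0.54.

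Acaca (chr11:84129635-84401651) encodes acetyl-CoA carboxylase 1, the cytosolic and rate-limiting step. Its normalized reads were 4665, 4879 and 4536 in WT and 3491, 3642 and 3662 in N275D. The genotypes did not overlap, and the log2 fold change was -0.38 (SE 0.04, limma adjusted p = 8.4e-07). Acacb encodes the isoform at the mitochondrial outer membrane, whose malonyl-CoA restrains fatty acid import for oxidation. It was read at only 20.6 to 28.3 normalized reads in WT and 28.6 to 39.9 in N275D, without overlap, a log2 difference of 0.46 that did not pass the test (limma adjusted p = 0.0769). Acss2, which makes acetyl-CoA from acetate, differed by -0.02 on the log2 scale, with a 95% interval of -0.21 to 0.16.

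The stearoyl-CoA desaturases, which turn saturated into monounsaturated fatty acids, rose while fatty acid synthase fell. Scd1 (chr19:44394450-44407709) was at 3391, 3488 and 3502 normalized reads in WT and at 4255, 4303 and 4194 in N275D. All N275D libraries were above all WT libraries, with a log2 fold change of 0.30 (SE 0.04, limma adjusted p = 5.0e-06). Scd2 (chr19:44293676-44306864), its neighbour on the chromosome, was at 28913, 29444 and 28548 in WT and at 32418, 32600 and 32759 in N275D, again without overlap. Its log2 fold change was 0.17 (SE 0.03, limma adjusted p = 0.00022). The genes are close paralogs, and how reads matching both were counted is not given in the sources used here, so that the split of reads between them is uncertain.

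The front-end desaturases, which make polyunsaturated fatty acids, moved the other way. Fads2 (chr19:10062765-10101503) was at 2306, 2415 and 2642 normalized reads in WT and at 1941, 1911 and 1939 in N275D. Fads1 (chr19:10182877-10196874), its neighbour, was at 1037, 1033 and 1086 in WT and at 844, 876 and 840 in N275D. Neither gene overlapped between genotypes. The log2 fold changes were -0.34 for Fads2 (SE 0.05, limma adjusted p = 2.1e-05) and -0.30 for Fads1 (SE 0.05, limma adjusted p = 9.1e-05).

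Among the elongases, Elovl1 and Elovl6 fell, Elovl7 rose and Elovl5 did not pass the test. Elovl6 extends palmitate to stearate, Elovl1 and Elovl7 act on saturated and monounsaturated chains including very long ones, and Elovl5 acts on polyunsaturated chains. Elovl7 had few normalized reads, 52.5, 57.5 and 50.1 in WT and 75.9, 72.2 and 89.9 in N275D, with a log2 fold change of 0.56 (SE 0.14, limma adjusted p = 0.0031). Elovl1 went from 2695 to 3242 in WT to 2416 to 2484 in N275D, a log2 fold change of -0.29 (SE 0.05, limma adjusted p = 0.0004). Elovl6 was at 1498 to 1699 in WT and at 1298 to 1386 in N275D, a log2 fold change of -0.25 (SE 0.05, limma adjusted p = 0.00079). None of these 3 genes overlapped between genotypes. Elovl5 lay at 1547 to 1700 and 1651 to 1738, overlapping, with a 95% interval of -0.06 to 0.14 for its log2 difference.

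Over the group, 9 of the 12 synthesis genes were called (75.0%, against 50.9% of all genes), 3 higher and 6 lower, with a median log2 fold change of -0.14 and a median size of 0.30 against 0.19 for all genes tested. The genotypes did not overlap in 10 of the 12, and in 57.7% of all genes tested. Summed over the group, normalized reads were 66709, 69283 and 69494 in WT and 62701, 63338 and 63780 in N275D. All N275D sums lay below all WT sums, a fall that came from Fasn. Its mean went from 21324 to 14236, a larger fall than that of the summed mean, from 68495 to 63273. The other synthesis genes together did not fall, with Scd2 and Scd1 higher.

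**Figure D2:**
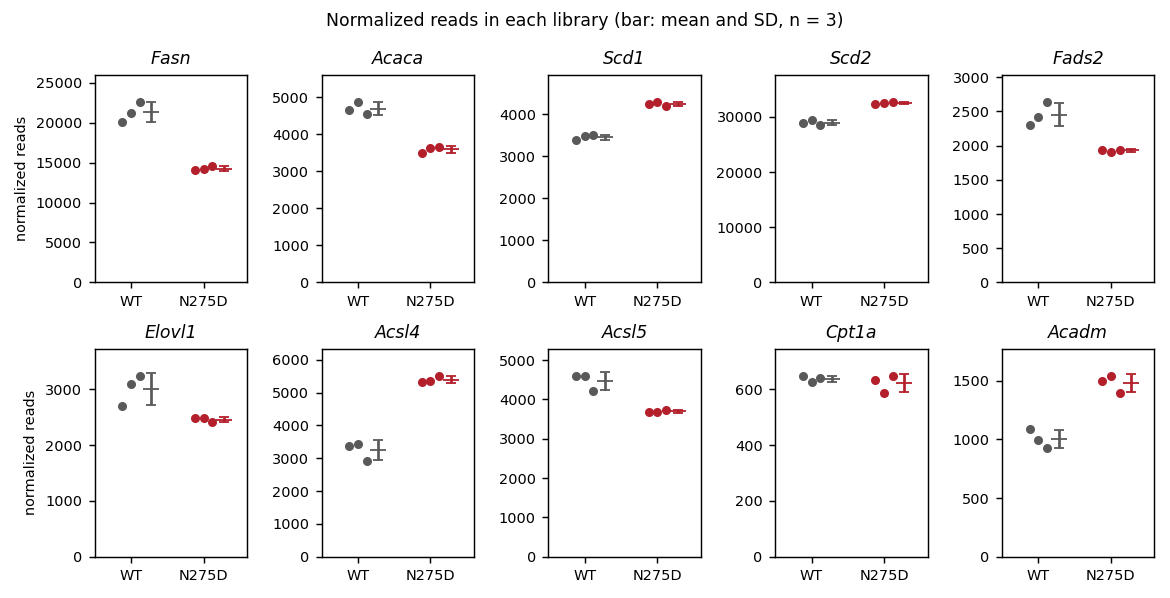
Normalized reads (y axis, from 0) in each of the 3 WT and 3 N275D libraries for 10 genes; points are libraries in replicate order and bars are the mean and SD (n = 3). In Fasn, Acaca, Fads2, Elovl1 and Acsl5 every N275D point is below the WT points, in Scd1, Scd2, Acsl4 and Acadm every one is above, and in Cpt1a they overlap.

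Levels of different genes can be compared only per length. Divided by the length of the principal transcript, Scd2 was the highest of the 38 genes in WT with 5310 normalized reads per kilobase, followed by the fatty acid binding protein Fabp5 with 4410 and Fasn with 2122. Scd1 was at 716, Acaca at 493 and Acacb at 2.73 normalized reads per kilobase. Cd36 was the lowest with 1.67. In N275D cells Fasn was at 1416 and Scd2 at 5975 normalized reads per kilobase.

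The within-library ratio of desaturase to synthase reads, chosen after the values were seen and given without a test, put these changes together. Normalized reads of Scd2 per read of Fasn were 1.44, 1.39 and 1.26 in WT and 2.31, 2.30 and 2.25 in N275D, a mean of 1.36 ± 0.09 (SD, n = 3) against 2.29 ± 0.03. Scd1 per Fasn was 0.169, 0.164 and 0.155 in WT and 0.304, 0.304 and 0.289 in N275D. In neither ratio did the genotypes overlap, which follows from the opposite shifts of its genes, each without overlap, and adds no separate evidence. Since both genes are read in the same library, the size factor cancels.

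**Figure D3:**
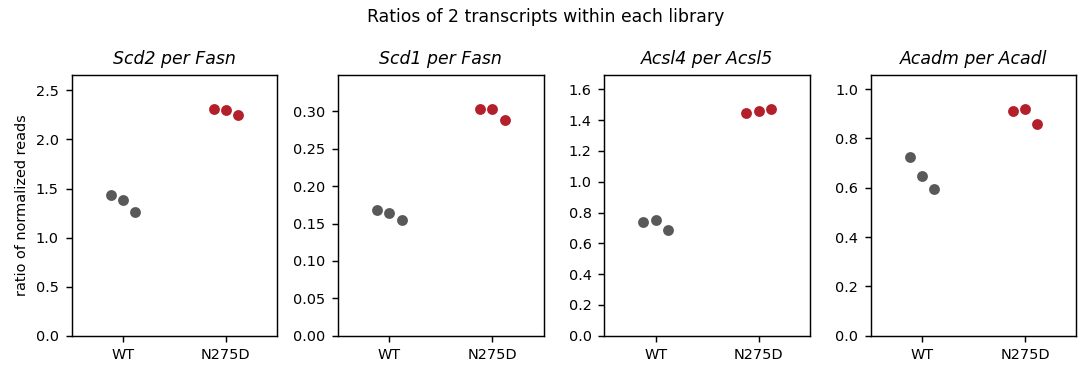
Ratios of the normalized reads of 2 transcripts in the same library (y axis, from 0) for WT and N275D, 1 point per library. Scd2 per Fasn is at 1.26 to 1.44 in WT and 2.25 to 2.31 in N275D, Acsl4 per Acsl5 at 0.689 to 0.749 and 1.44 to 1.48, and no ratio overlaps between genotypes. Where 1 gene rose and the other fell without overlap, the separation of the ratio follows from those shifts.

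Among the genes of uptake and activation, the acyl-CoA synthetases moved in opposite directions. Acsl4 (chrX:142317993-142390802) encodes an acyl-CoA synthetase that prefers arachidonate and other polyunsaturated fatty acids and is known for its part in lipid peroxidation and ferroptosis. Its normalized reads were 3387, 3443 and 2902 in WT and 5313, 5349 and 5507 in N275D, a mean of 3244 ± 298 (SD, n = 3) against 5390 ± 103. The N275D libraries all lay above the WT libraries. The log2 fold change was 0.74 (SE 0.05, limma adjusted p = 1.3e-08), a level of 1.67 times that in WT and the largest change of the 37 genes. It was 0.66 without WT replicate 3, the lowest of the WT libraries.

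Acsl5, an acyl-CoA synthetase of mitochondria and endoplasmic reticulum, fell. It was at 4593, 4596 and 4213 normalized reads in WT and at 3680, 3672 and 3733 in N275D, with a log2 fold change of -0.27 (SE 0.04, limma adjusted p = 4.1e-05). Acsl1, the synthetase known from oxidative tissues and from inflammatory macrophages, rose from 235, 267 and 256 to 328, 349 and 358, with a log2 fold change of 0.45 (SE 0.07, limma adjusted p = 0.00012). Both genes were without overlap between genotypes. Acsl3, which acts at forming lipid droplets, was at 850 to 908 in WT and 878 to 936 in N275D, a log2 difference of 0.02 with a 95% interval of -0.09 to 0.13.

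The ratio of Acsl4 to Acsl5 reads, also chosen after the values were seen, was 0.737, 0.749 and 0.689 in WT and 1.44, 1.46 and 1.48 in N275D. Per kilobase of transcript, Acsl4 was at 614 normalized reads in WT and 1021 in N275D, and Acsl5 at 1053 and 871, so that the order of their levels was exchanged between the genotypes.

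Fabp5, the epidermal fatty acid binding protein that carries fatty acids in the cytosol and in T cells serves their uptake, fell. Its normalized reads were 4229, 4396 and 4433 in WT and 3480, 3890 and 3501 in N275D, without overlap, and the log2 fold change was -0.27 (SE 0.04, limma adjusted p = 0.00013). Fabp5 has processed pseudogenes that could share reads with it. Cd36 was read at 2.95 to 9.08 in WT and 8.89 to 13.0 in N275D and was not tested. Acss1, the mitochondrial acetate-activating enzyme, had 33.3 to 46.2 normalized reads in WT and 36.5 to 57.2 in N275D and did not pass the test (log2 difference 0.31, limma adjusted p = 0.193). It was called higher without N275D replicate 3, at 0.51. In the group, 4 of 6 genes tested were called (66.7%, against 50.9% of all genes), 2 in each direction. The summed normalized reads were 12703 to 13649 in WT and 13805 to 14222 in N275D. Acsl4 rose from a mean of 3244 to 5390, more than the summed mean, which rose from 13249 to 14016. The other genes of the group together fell.

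The oxidation genes had the smallest median change of the 3 groups. Of 19 tested, 7 were called (36.8%, against 50.9% of all genes), 6 higher and 1 lower, and the median size of the change was 0.08 on the log2 scale against 0.19 for all genes. Summed over the group, normalized reads were 22367, 22099 and 22119 in WT and 22997, 23525 and 23000 in N275D. For the 12 genes not called, log2 differences were -0.06 to 0.11 and all 95% intervals lay within -0.19 and 0.22.

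**Figure D4:**
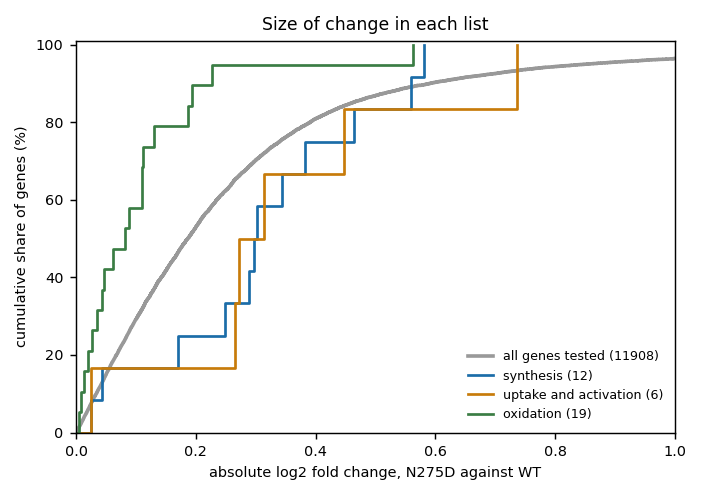
Cumulative share of genes in percent (y axis) by the absolute log2 fold change between N275D and WT (x axis, cut at 1), for all 11908 genes tested and for the 12 synthesis, 6 uptake and activation and 19 oxidation genes tested. The oxidation curve lies above that of all genes over nearly the whole axis, with Acadm as its last step, and the other groups have medians of 0.30 and 0.29 against 0.19 for all genes.

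Acadm (chr3:153922353-153944643) encodes medium-chain acyl-CoA dehydrogenase, which opens the cycle on medium-chain acyl groups. Its normalized reads were 1084, 992 and 927 in WT and 1499, 1540 and 1391 in N275D, a mean of 1001 ± 79 (SD, n = 3) against 1477 ± 77. Every N275D library was above every WT library, and the log2 fold change was 0.56 (SE 0.06, limma adjusted p = 9.9e-07), or 0.51 without WT replicate 3. The dehydrogenases for the other chain lengths did not move this far. Acadl, for long chains, was at 1499, 1528 and 1556 in WT and 1647, 1672 and 1624 in N275D, a log2 fold change of 0.11 (limma adjusted p = 0.0405). Acadvl, for very long chains, and Acads, for short chains, differed by 0.02 and 0.09 with overlapping libraries and did not pass the test. Reads of Acadm per read of Acadl, a ratio chosen after the values were seen, were 0.723, 0.649 and 0.596 in WT and 0.910, 0.921 and 0.856 in N275D.

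The carnitine shuttle controls entry into oxidation, and its 3 genes differed by -0.05 to 0.19 on the log2 scale. Cpt1a (chr19:3322326-3385735), the rate-limiting carnitine palmitoyltransferase of the outer membrane, was at 647, 624 and 640 normalized reads in WT and at 633, 588 and 648 in N275D. The genotypes overlapped, and the log2 difference of -0.03 had a 95% interval of -0.15 to 0.09. The carnitine-acylcarnitine carrier Slc25a20 differed by -0.05, also with overlap. Cpt2, the inner membrane enzyme, was at 303, 326 and 325 in WT and at 374, 339 and 378 in N275D, with a log2 fold change of 0.19 (SE 0.07, limma adjusted p = 0.0317).

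Among the auxiliary and electron-transfer genes the calls were small. Decr1, the dienoyl-CoA reductase needed to oxidize polyunsaturated chains, was at 292, 283 and 295 in WT and at 326, 363 and 330 in N275D, a log2 fold change of 0.23 (SE 0.07, limma adjusted p = 0.0136). The electron transfer flavoprotein passes electrons from the acyl-CoA dehydrogenases to the respiratory chain, and its 3 genes did not move together. Etfa, the alpha subunit, fell by 0.11 on the log2 scale (limma adjusted p = 0.0413), from 1410 to 1456 normalized reads in WT to 1303 to 1338 in N275D. Etfb, the beta subunit, was at 1801, 1595 and 2008 in WT and at 2029, 2134 and 1965 in N275D, which overlapped although the gene was called (log2 fold change 0.19, limma adjusted p = 0.0233). Etfdh, the dehydrogenase that takes electrons from the flavoprotein to ubiquinone, was at 1038, 1035 and 1026 in WT and at 1149, 1111 and 1132 in N275D, a log2 fold change of 0.13 (limma adjusted p = 0.0255).

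The core of the cycle showed no change that passed the test. The trifunctional protein subunits Hadha and Hadhb, the short-chain dehydrogenase Hadh, the hydratase Echs1, the isomerase Eci1 and the thiolase Acat1 differed by -0.06 to 0.00 on the log2 scale, each with overlapping libraries. Acaa2, a mitochondrial thiolase, differed by 0.08. Eci2, an isomerase for unsaturated chains, was at 961 to 1041 in WT and 1065 to 1113 in N275D, without overlap but short of the threshold (log2 difference 0.11, limma adjusted p = 0.0782).

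Of the 7 oxidation calls, only that of Acadm held when any 1 library was left out. The number called higher, 6 with all libraries, was 2 without WT replicate 1, N275D replicate 1 or N275D replicate 2, and 3 without WT replicate 2 or N275D replicate 3. The call of Etfa was lost when any 1 of these 5 libraries was left out. Leaving out WT replicate 3 kept all 20 calls over the 3 groups, and the 13 calls in synthesis and in uptake and activation held in every leave-one-out fit.

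Other genes of these pathways, from lists written with earlier results of these data known, moved in both directions. Of 15 other synthesis genes tested, 2 were called higher and 3 lower, 33.3% in all, against 50.9% of all genes. Me1, the malic enzyme that supplies NADPH, was at 16.1, 13.1 and 12.8 normalized reads in WT and at 42.9, 42.1 and 44.4 in N275D, without overlap, a log2 fold change of 1.56 (SE 0.21, limma adjusted p = 1.2e-05). Mecr, of mitochondrial fatty acid synthesis, fell by 0.39 and Hacd3, a dehydratase of chain elongation, rose by 0.37 on the log2 scale.

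Of 9 other uptake and activation genes tested, 4 were higher and 1 lower, or 55.6%, near the 50.9% of all genes. Acsbg1, an acyl-CoA synthetase, was at 105, 109 and 115 normalized reads in WT and at 246, 263 and 253 in N275D, a log2 fold change of 1.20 (SE 0.09, limma adjusted p = 1.4e-08). The libraries of the genotypes lay far apart. The fatty acid transport proteins went both ways, with Slc27a4 higher by 0.36 and Slc27a3 lower by 0.45 on the log2 scale.

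Of 32 other oxidation genes tested, 12 were higher and 6 lower, or 56.2%, near the 50.9% of all genes. Crot, the carnitine octanoyltransferase of peroxisomes, rose from 381 ± 35 to 538 ± 25 normalized reads (SD, n = 3), a log2 fold change of 0.50 (limma adjusted p = 3.0e-05). Acad10, a member of the acyl-CoA dehydrogenase family, rose by 0.47 on the log2 scale, a call lost without WT replicate 1 (0.39), N275D replicate 1 (0.44) or N275D replicate 2 (0.43). Cpt1c, a carnitine palmitoyltransferase family member known from neurons, fell from 46.7 ± 2.8 to 24.9 ± 4.1, a log2 fold change of -0.89 (limma adjusted p = 0.00088).

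The transcriptional regulators of synthesis were mixed. Srebf1, which encodes the factor that drives Fasn, Acaca and Scd1 in liver, was at 3570, 3585 and 3785 normalized reads in WT and at 3787, 3722 and 3902 in N275D, overlapping, and did not pass the test (log2 difference 0.06, limma adjusted p = 0.206). It was called higher without WT replicate 3, at 0.09 on the log2 scale. Srebf2, the sterol-responsive factor, was at 10266, 10628 and 11269 in WT and at 9220, 9065 and 9038 in N275D, without overlap, and fell by 0.23 on the log2 scale (limma adjusted p = 7.7e-05). Scap, which escorts both precursors to the Golgi, fell by 0.24, and Insig2, which holds Scap back, rose by 0.17, a call lost without WT replicate 2 (0.17), WT replicate 3 (0.14) or N275D replicate 1 (0.14). Of 9 synthesis regulators tested, 2 were higher and 2 lower, or 44.4%, against 50.9% of all genes.

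Of 9 oxidation regulators tested, 2 were higher and 3 lower, or 55.6%, near the 50.9% of all genes. Pparg, a nuclear receptor of lipid storage, was at 62.6, 67.6 and 58.9 normalized reads in WT and at 94.8, 82.3 and 81.0 in N275D, without overlap, a log2 fold change of 0.44 (limma adjusted p = 0.00899). That call was lost without N275D replicate 1, at 0.37. Ppargc1b, a coactivator of mitochondrial genes, fell by 0.49, and Prkaa1, a catalytic subunit of AMP-activated kinase, rose by 0.18 on the log2 scale. Ppard differed by -0.08 and did not pass the test. Ppara and Ppargc1a, the best known activators of oxidation in liver and muscle, were at 2.02 normalized reads or fewer in every library.

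Markers of other cells were not equal between genotypes, and most were low. Ebf1 was not low, at 967 to 995 normalized reads in WT and 1414 to 1538 in N275D. Among all genes tested, 24.7% were called higher and 26.1% lower. Of 6 B cell markers 5 were tested and 4 were higher in N275D. Their summed normalized reads were 1117 to 1155 in WT and 1687 to 1754 in N275D, mostly Ebf1, and 150 to 160 against 214 to 273 without Ebf1, with Ms4a1 at 0 to 1.01 in WT and 3.99 to 9.88 in N275D. Of 4 CD8 T and natural killer cell markers tested, 3 were higher. The sums of this list were 200.9 to 216 in WT and 284 to 325 in N275D, with Klrb1c at 0 in all N275D libraries. Cd8a was not called, at 25.2 to 38.3 in WT and 24.7 to 29.9 in N275D. Of 3 myeloid markers tested, Cd14 was higher and Adgre1 lower, with sums of 89.8 to 108 in WT and 105 to 130 in N275D and Csf1r at 0 to 2.02 and 1.98 to 3.99. Their part in the changes of the fatty acid genes was not tested. In bulk RNA, a change in the share of cells that carry a transcript and a change in its amount per cell cannot be told apart.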

How the data were processed

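The 3 WT and 3 RORγtN275D RNA-seq libraries were grouped by their labels. The methods name STAR as the authors' aligner, featureCounts as their counter and DESeq2 as their test, on the mm10 genome, with versions not given in the sources used here. The labels name poly-A selection and a directional kit, and the methods strand-specific DNBSEQ libraries. The deposited signal for a gene is its read number scaled by the authors with a single size factor for each library. Values were whole multiples of a step for each library, the reciprocal of that factor, for 100% of genes (tolerance 1e-06), which gave the reads on genes. The deposited table also holds the authors' log2 fold changes, q-values and group averages, which were not used. All 6 columns of libraries were used.

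Genotypes were compared by limma 3.58.1 (R 4.3.3) on log2(normalized reads + 1), over 11908 genes with a mean of at least 10. The prior variance followed the mean level, with 12.05 prior degrees of freedom. The fit held no block, and Benjamini-Hochberg adjustment was over all genes tested. The test was first run on simulated data with changes larger than those of nearly all called members. Calls of small changes were therefore not checked there. Depth limits genes with few reads, such as Elovl7, Acacb, Acss1 and Cd36. Same-numbered libraries did not deviate together (correlations of -0.05, 0.04 and -0.08). The members and lists were chosen with earlier results of these data known. Values in every library were given for up to 5 called members with the largest change in each group and for Acaca, Fasn, Scd1 and Cpt1a, and from each other pathway list up to 3 called genes with the largest change were named, plus Srebf1 and the PPAR family. Some other members, such as Scd2 and Acadl, are given in the same way beside their relatives, outside this rule. One marker gene is not reported here. Lengths are of the longest principal transcript in GENCODE vM21, and gene coordinates and promoters are from RefSeq on GRCm38.p6. Alternatives were pseudocounts of 0.1 and 10, filters on a mean above 0 and of at least 100, TMM and quantile normalization, a replicate block, and each library left out in turn.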

Additional observations from a re-analysis of the deposited data

How the results depend on the processing

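The 13 calls in synthesis and in uptake and activation and the call of Acadm kept their direction and their side of the threshold under each of the 13 alternatives run in which the gene was tested, with Elovl7 tested in 12. The log2 fold change of Fasn ranged from -0.62 to -0.54, that of Acsl4 from 0.66 to 0.81 and that of Acadm from 0.51 to 0.62. The other oxidation calls, Cpt2, Acadl, Etfa, Etfb, Etfdh and Decr1, were each lost in 2 to 7 alternatives, and no called member changed direction. Oxidation members called higher ranged from 2 to 6 and those called lower from 0 to 1 when 1 library was left out, against 6 and 1. The number called lower was 0 under quantile normalization and 0 with the replicate number as a block. The block left 17 of 20 members called, without Acadl, Etfa and Etfdh, and the numbers were not found to pair the libraries. Genes called at 2-fold, 427, numbered 259 with a pseudocount of 10, 703 without a filter and 162 with a mean of at least 100. By construction, a larger pseudocount shrinks the log2 changes of low genes, and the filters test other numbers of genes. What else contributed was not tested. Quantile normalization moved the median of all genes to -0.02 and ended the calls of Acad10 (0.28) and Pparg (0.26), while Srebf1 was called (0.12). The planned edgeR and DESeq2 fits were not run. The deposited values were tested in their normalized unit, although reads could be recovered from them.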
